A study of Mus musculus with 20 samples.

Results

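Heat shock protein and DnaJ chaperone genes were followed in the heart apex of mice with and without cardiac light chain amyloid. Members were the rows of the count table whose gene name was a numbered Hspa, Hspb, Hspd, Hspe, Hsph, Hsp90, Dnaja, Dnajb or Dnajc gene, together with Cryab, Bag3, Hsf1 and Hsf2. The rule gave 77 of the 25308 rows, under 76 gene names, because Hspa4l is listed with 2 identifiers (ENSMUSG00000025757 and ENSMUSG00000115951). Grouped by name alone, 9 were small heat shock protein genes (the Hspb genes, with Hspb11 among them, and Cryab), 15 were HSP70 and HSP110 rows and 3 were HSP90 genes. The others were the mitochondrial chaperonin pair Hspd1 and Hspe1, 4 Dnaja genes, 13 Dnajb genes, 28 Dnajc genes, and Bag3, Hsf1 and Hsf2. Of the 77 rows, 69 passed the filter on low counts and were tested among 14477 genes.

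RNA came from 20 mice in 3 groups. The AL group (n = 9) and the LS group (n = 4) were λS-DH mice, which carry a cDNA of the human λ light chain of an AL patient in the mouse immunoglobulin κ locus on the DH-LMP2A background, both alleles homozygous. AL mice had received 1 intravenous injection of recombinant λS-VL, as fibril seeds or as soluble protein, and had cardiac amyloid, whereas LS mice were not injected and had no deposits. Ctrl mice (n = 7) were age-matched DH-LMP2A mice without the light chain. The DH-LMP2A background, shared by all 3 groups, gives many plasma cells that make no immunoglobulin heavy chain. The mice were adults of both sexes, but the labels do not give the sex, age or inducing agent of a single mouse, so injection and deposits cannot be told apart. A first sequencing run held 7 AL, 4 LS and 4 Ctrl mice, and a second run 2 AL and 3 Ctrl mice.

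HSP70 proteins fold and refold client proteins in an ATP cycle that J-domain (DnaJ) proteins start and that exchange factors such as HSP110 and BAG proteins complete. HSP90 completes the maturation of many signalling proteins, and small heat shock proteins hold unfolded proteins in solution without ATP. The small heat shock proteins are abundant in cardiac muscle, where αB-crystallin (Cryab) and BAG3 protect desmin and sarcomere proteins. Heat shock factor 1 (Hsf1) drives the inducible genes of the family, whereas the chaperones of the endoplasmic reticulum (ER) answer to the unfolded protein response.

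Depth differed by run, with total counts of 43993277 to 62668146 in the first run and 7867642 to 11794615 in the second, and the members held a share of 1.19% to 1.56% of each library. Levels are given as CPM, counts relative to the TMM-scaled library size. Of the 8 genes of a cardiomyocyte list, 2 were lower in AL than in Ctrl mice and 2 lower than in LS mice at an FDR under 0.05, and their summed level was 46894 to 75793 CPM in AL, 62411 to 69355 CPM in LS and 59703 to 76637 CPM in Ctrl mice. Of 6 fibroblast and 6 endothelial genes none passed, and of 7 macrophage genes 1 was higher against Ctrl. The second-run mouse AL9 had the highest sums of all mice for the fibroblast (1978 CPM) and macrophage lists (368 CPM). All 10 genes of a hepatocyte list were lower in AL than in Ctrl mice at an FDR under 0.05, with sums of 0.775 to 35.6 CPM in AL, 6.31 to 178 CPM in LS and 0.398 to 301 CPM in Ctrl. Of a list of skeletal muscle genes 4 were tested and 2 were higher in AL against either group, with sums of 154 to 1046 CPM in AL, 90.6 to 181 CPM in LS and 87.6 to 444 CPM in Ctrl mice. The part of these lists in the results was not tested, apart from fits with the hepatocyte list as a covariate. Xist, which is expressed from the inactive X chromosome, was at 185 to 399.6 CPM in 8 first-run mice (AL2 to AL4, LS2, LS3 and Ctrl1 to Ctrl3) and at 0 to 6.35 CPM in the other 12. In bulk tissue, fewer cells of a type and less RNA per cell cannot be told apart.

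Per kilobase of exon, Hspb7 and Cryab had the highest levels among the members in Ctrl mice, with 799 ± 163 and 736 ± 116 CPM per kb (SD, n = 7), which did not differ beyond their spread. Hsp90ab1, the constitutive cytosolic HSP90, followed with 494 ± 46.8 CPM per kb, and Hspa8, the constitutive cytosolic HSP70, with 406 ± 88.6 CPM per kb, again within their spread. Next came Hspb8, a partner of BAG3, with 211 ± 33.5, Hspd1 with 179 ± 24.8, and the mitochondrial HSP70 gene Hspa9 with 172 ± 15.4 CPM per kb. The heat shock factor Hsf2 stood at 1.59 ± 0.178 CPM per kb. The 8 untested rows were Hspb9, Dnajb3, Dnajb7, Dnajb8, Dnajb13, Dnajc5b, Dnajc5g and Dnajc22, whose highest count in any mouse was 14, in Dnajc22. Dnajb8 had a count of 0 in every mouse.

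The comparison of AL with Ctrl asked how the amyloid heart differed from hearts without the light chain. In edgeR's quasi-likelihood test with the run in the model, 14 of 69 members passed an FDR of 0.05 (20.3%, against 26.2% of all tested genes), the FDR being the Benjamini-Hochberg adjusted p over all tested genes. Of these, 4 were higher in AL (Hspb6, Hspb1, Hspb2 and Dnajc4; 5.8%, against 10.7% of all genes) and 10 were lower (14.5%, against 15.4%). The median log2FC was -0.08 over the members and 0.01 over all tested genes. Whether passing or not, 43 of the 69 members and 7007 of the 14477 tested genes had a lower value in AL. With an absolute log2FC of at least 0.58 added, 4 members were called, against 7.81% of all genes: Hspb6 and Hspb1 were higher, and Hspa12a and Dnajc28 were lower. RLE scaling called 3, of which 2 were higher and 1 was lower. On ComBat-seq adjusted counts, 3 members passed the FDR against Ctrl (Hspb6, Hspb1 and Hspa12a) and 2 against LS (Hspa12a and Dnajb1). The shares of all genes in these alternative fits are not given, so their counts are not set against those of other genes.

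Compared with LS, the AL mice addressed deposits in animals that all made the light chain. Here 15 of 69 members passed (21.7%, against 23.4% of all genes), 2 of them higher (Hspb6 and Bag3; 2.9%, against 9.78%) and 13 lower (18.8%, against 13.6%). Members called were Hspb6, Hspa12a and Dnajb1, against 8.9% of all genes. Whether passing or not, 48 of the 69 members and 7038 of the 14477 tested genes had a lower value in AL than in LS. Both comparisons use the same 9 AL mice. Hspb6, Hspa12a, Hspa13, Hspa9, Dnaja3, Dnajc13, Dnajc16 and Dnajc28 passed in both. Another 6 passed against Ctrl alone (Hspb1, Hspb2, Dnajb9, Dnajc3, Dnajc4 and Dnajc19) and 7 against LS alone (Bag3, Dnajb1, Dnajc8, Dnajc24, Hspa4, Hspa5 and Hspa14), without a test of the difference between those comparisons.

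**Figure D1:**
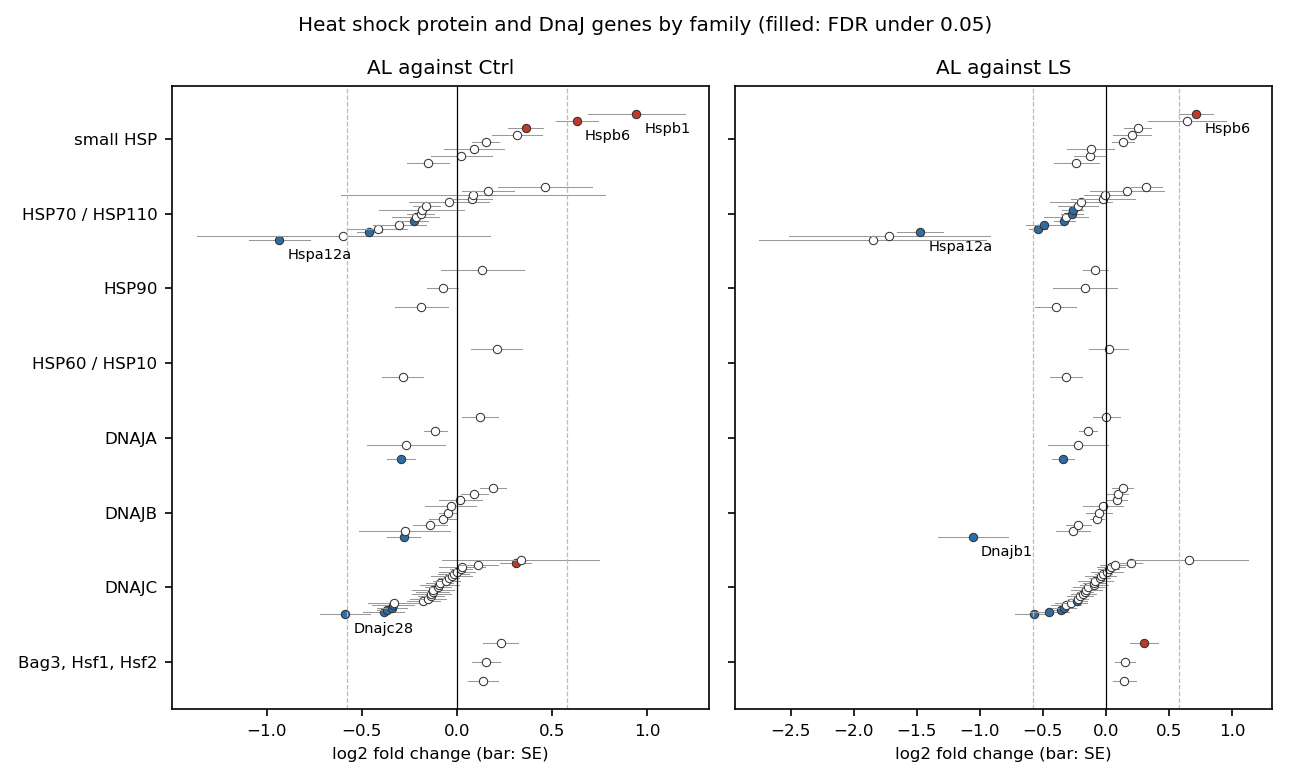
Log2 fold change of each of the 69 tested members, by family, for AL against Ctrl (left) and AL against LS (right); bars show the SE, filled points have an FDR under 0.05, dashed lines mark a log2 fold change of 0.58 in each direction, and the 2 panels have different x axes. Against Ctrl, the filled small heat shock protein points lie at 0.36 to 0.94, and the filled HSP70 points at -0.93 to -0.23.

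LS against Ctrl tested the soluble light chain without deposits, and no member passed, against 0.0207% of all genes. DESeq2 also passed none. In edgeR 3 members (Hspa12a, Dnajb1 and Hspa1a) had an unadjusted p under 0.05, with a log2FC of 0.54, 0.78 and 1.80 (FDR 0.784, 0.794 and 0.818). The share of all genes with such a p is not given, so this count does not set the members apart from other genes. Against LS and Ctrl merged into 1 group, 23 members passed (33.3%, against 36.2% of all genes), 6 higher (8.7%, against 16.5%) and 17 lower (24.6%, against 19.8%). Hspa12a alone reached a log2FC of 1 there, at -1.16 ± 0.16 (SE), against 4.88% of all genes. These 23 hold 19 of the 21 members that passed against Ctrl or LS, and also Hspd1, Hspa4l (ENSMUSG00000025757), Dnajb2 and Dnajc5. Over all mice, 4 members had AL values that did not overlap with any of the 11 LS and Ctrl mice, against 1.47% of all genes, namely Hspb6, Dnajc13, Dnajc16 and Dnajc28.

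Of the 4 members that rose against Ctrl, 3 were small heat shock proteins. Against Ctrl, 7 of the 8 tested small heat shock protein genes were higher in AL and 3 passed, all higher, where 10.7% of all genes passed higher, with a median log2FC of 0.23. Against LS, 5 of 8 were higher and Hspb6 passed, where 9.78% of all genes passed higher.

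Hspb6 (ENSMUSG00000036854, chr7:30552178-30555443 in GRCm38, plus strand), also known as Hsp20 and abundant in muscle, was at 389, 417 and 590 CPM (lowest, median and highest) in AL mice. The LS mice had 304, 247, 275 and 288 CPM, and Ctrl mice 217, 305 and 357 CPM. Every AL mouse lay above every other mouse. Hspb6 rose 1.55-fold against Ctrl (log2FC 0.63 ± 0.11 SE, edgeR FDR 0.000663) and 1.64-fold against LS (0.72 ± 0.13, FDR 0.00137). Within runs the log2FC was 0.58 in the first and 0.77 in the second. Against Ctrl the FDR stayed below 0.05 but the log2FC fell to 0.56 without AL8 and to 0.55 without Ctrl3, and it was 0.56 with Xist as a covariate (FDR 0.00176). Against LS, Hspb6 did not pass on ComBat-seq adjusted counts (0.67, FDR 0.0686). Hspb6 overlaps Lin37 and Proser3 on the other strand and Gm38670 on its own, so part of its count could belong to Gm38670.

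Hspb1 (ENSMUSG00000004951, chr5:135887919-135889563, plus strand) encodes the stress-inducible Hsp25, the mouse counterpart of human HSP27. AL mice had 41.8, 99.0 and 209 CPM, LS mice 87.9, 71.4, 71.5 and 77.1 CPM, and Ctrl mice 19.5, 59.1 and 81.8 CPM, with overlap between the groups. Values were high in AL1 (209), AL7 (161) and AL6 (139), while AL2, AL3 and AL4 had 61.8, 65.2 and 74.5 CPM, close to the 59.1, 60.1 and 67.0 CPM of Ctrl1, Ctrl2 and Ctrl3. These 6 are among the mice with high Xist. Hspb1 rose 1.92-fold against Ctrl (0.94 ± 0.26, edgeR FDR 0.0117), and with Xist as a covariate the log2FC was 0.64 (FDR 0.0375). Against LS the log2FC was 0.64 ± 0.31 and did not pass (FDR 0.136). The rise against Ctrl did not pass in the first run alone (0.78, FDR 0.0591), where the second run had a log2FC of 1.36.

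The sequences upstream of Hspb6 and Hspb1 are shown because they are the 2 members called higher in AL, with the 8-base match to the heat shock element core GAANNTTC in capitals, from RefSeq on GRCm38.p6, 5′ to 3′ on the plus strand. The first is chr7:30553063-30553267, before the second listed start of Hspb6 and without bases annotated as exon, and the second is chr5:135887669-135887918.
Hspb6: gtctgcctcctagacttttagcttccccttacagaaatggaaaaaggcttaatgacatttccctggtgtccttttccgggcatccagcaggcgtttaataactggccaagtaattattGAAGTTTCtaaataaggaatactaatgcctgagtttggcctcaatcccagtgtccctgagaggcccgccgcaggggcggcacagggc
Hspb1: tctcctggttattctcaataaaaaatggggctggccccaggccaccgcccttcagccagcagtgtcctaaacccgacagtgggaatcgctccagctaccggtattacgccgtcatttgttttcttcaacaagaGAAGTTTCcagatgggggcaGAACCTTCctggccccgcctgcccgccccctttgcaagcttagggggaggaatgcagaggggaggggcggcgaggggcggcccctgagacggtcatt
The 250 bases before the first listed start of Hspb6 hold no match. The match printed for Hspb6 starts 120 bases before the second start, and those of Hspb1 117 and 97 bases before. GAANNTTC reads the same on both strands and is found in 15.6% of the 77 RefSeq promoters of members (60 of 76 names matched), and in 6.69% of all 32851 promoters of the same 250 upstream bases. Its counterpart TTCNNGAA is found in 10.4% of the members' promoters and 7.17% of all. A longer match of 3 units (GAANNTTC followed by NNGAA, or TTCNNGAA followed by NNTTC) occurs in 5.2% against 0.466%, in Hspd1, Hspe1 and Dnajb6, none of which passed against Ctrl or LS. Such a match is a description of the sequence, not a binding site.

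Hspb2 (ENSMUSG00000038086), which forms complexes with Hspb3 in muscle, was at 25.4, 29.1 and 33.4 CPM in AL mice, 25.3, 22.0, 25.7 and 25.8 CPM in LS mice, and 16.9, 22.0 and 26.7 CPM in Ctrl mice. The AL values overlapped only at the bottom of their range. Hspb2 rose 1.28-fold against Ctrl (log2FC 0.36 ± 0.09, edgeR FDR 0.00835), while its log2FC of 0.25 ± 0.11 against LS did not pass (FDR 0.0966), except in the first run alone (0.27, FDR 0.0452) and in a fit of those 2 groups only (0.26, FDR 0.0337). Cryab lies head to head with Hspb2, overlapping it on the opposite strand of chromosome 9. Its levels were 758, 1440 and 2117 CPM in AL, 1320, 1416, 1421 and 1212 CPM in LS, and 840, 1188 and 1223 CPM in Ctrl mice. Cryab had a log2FC of 0.32 ± 0.13 against Ctrl (FDR 0.0776) and 0.21 ± 0.15 against LS (FDR 0.335). AL9, with 758 CPM, was the lowest mouse of all in Cryab and AL1 the highest. Cryab passed against Ctrl without AL9 (0.43, FDR 0.0107), without Ctrl7 (0.39, FDR 0.0213), with DESeq2 (0.32, FDR 0.0362) and in the first run alone (0.44, FDR 0.0145), and in the second run its log2FC was 0.09.

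Hspb7, a cardiac member with effects on filament proteins, averaged 2280 ± 518 CPM in the 9 AL mice (SD), 1884 ± 92.0 CPM in the 4 LS mice and 2212 ± 451 CPM in the 7 Ctrl mice, with a log2FC of 0.15 against Ctrl (FDR 0.12) and 0.13 against LS (FDR 0.266). Hspb8 was the 1 small heat shock protein with a lower value against Ctrl (-0.15, FDR 0.317). Bag3, the exchange factor that couples HSP70 to Hspb8, was at 150, 184 and 244 CPM in AL, 158, 152, 138 and 140 CPM in LS, and 138, 161 and 189 CPM in Ctrl mice. It rose 1.23-fold against LS (log2FC 0.30 ± 0.11) at an edgeR FDR of 0.0497. It did not pass without any 1 of 13 mice (AL1, AL5, AL6, AL7, every LS mouse, Ctrl1, Ctrl3, Ctrl4, Ctrl6 or Ctrl7), with an FDR of up to 0.134, reached without LS4. Against Ctrl, Bag3 had a log2FC of 0.23 ± 0.09 (FDR 0.0691), which passed without AL2 (0.25, FDR 0.0463) and with DESeq2 (0.24, FDR 0.0321). Hsf1 lay at 15.8 to 30.5 CPM in AL, 15.3 to 18.9 CPM in LS and 16.6 to 24.2 CPM in Ctrl mice, and Hsf2 averaged 17.7 ± 2.49, 16.7 ± 1.70 and 15.2 ± 1.71 CPM (SD). Neither passed against Ctrl (log2FC 0.14, FDR 0.212, and 0.15, FDR 0.12) or LS (FDR 0.269 and 0.188). Hsf2 passed against Ctrl without AL9 (0.20, FDR 0.0464) and in the first run alone (0.24, FDR 0.0399). Hsf1 passed against Ctrl with the hepatocyte list as a covariate (0.28, FDR 0.0468).

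**Figure D2:**
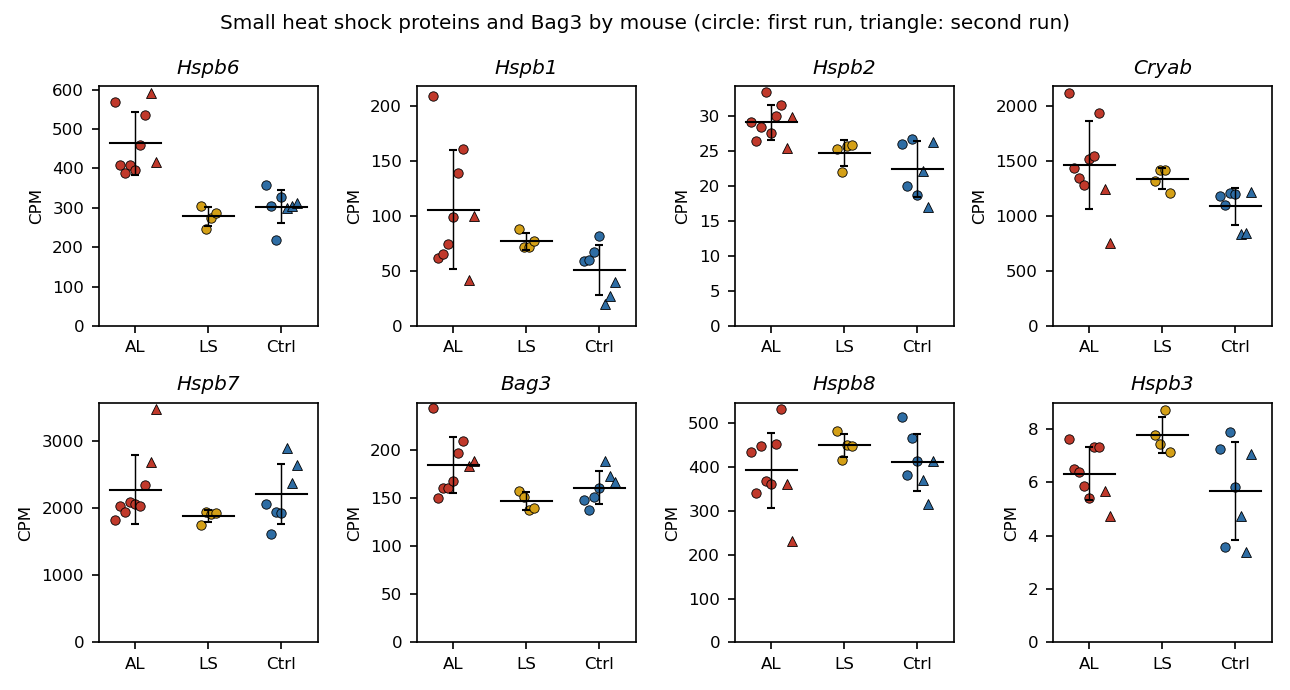
CPM of 7 small heat shock protein genes and Bag3 in each mouse by group (AL, LS, Ctrl); circles are first-run and triangles second-run mice, the long line is the mean and the error bar the SD. Hspb6 is at 389 CPM or more in all 9 AL mice and at 357 CPM or less in the other 11.

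Among the HSP70 and HSP110 rows, 11 of 15 were lower in AL against Ctrl, with a median log2FC of -0.19, and 3 passed (Hspa12a, Hspa13 and Hspa9), all lower, where 15.4% of all genes passed lower. Against LS, 13 of 15 were lower and 6 passed, all lower, where 13.6% of all genes did.

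Hspa12a (ENSMUSG00000025092, chr19:58795750-58943654, minus strand), a distant member of the HSP70 family, had 10.96, 11.9 and 21.9 CPM in AL mice. LS mice had 37.1, 25.1, 39.3 and 35.1 CPM, and Ctrl mice 12.7, 26.9 and 34.4 CPM. Apart from AL8 at 21.9, the AL mice lay within 10.96 to 14.2 CPM, and the single overlap with the other groups came from Ctrl1 at 12.7 CPM. Hspa12a fell to 0.523 of its Ctrl level (log2FC -0.93 ± 0.16, edgeR FDR 0.000613) and to 0.36 of its LS level (-1.47 ± 0.18, FDR 0.000292). It kept an FDR under 0.05 in both comparisons without each of the 20 mice. In the second run alone, with 2 against 3 mice, the log2FC was -0.74 (FDR 0.321).

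Hspa13 (ENSMUSG00000032932, chr16:75745431-75767104, minus strand), an HSP70-like ATPase of the microsomes, had AL values of 19.7 to 26.6 CPM in the first run against 27.3 to 31.6 CPM in Ctrl and 30.5 to 33.1 CPM in LS mice. Second-run values were 10.5 and 11.4 CPM in AL and 14.1 to 17.5 CPM in Ctrl mice. The groups did not overlap within either run, but each run had its own level. Its log2FC was -0.46 ± 0.06 against Ctrl (edgeR FDR 0.000178) and -0.54 ± 0.07 against LS (FDR 0.000312), and without the run in the model it did not pass against Ctrl (-0.29, FDR 0.333).

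Hspa9, the HSP70 of the mitochondrial matrix, was at 474, 622 and 762 CPM in AL, 719, 780, 732 and 750 CPM in LS, and 645, 727 and 842 CPM in Ctrl mice. It fell by 0.23 ± 0.08 on the log2 scale against Ctrl (edgeR FDR 0.0348) and by 0.27 ± 0.09 against LS (FDR 0.0347). Leaving out AL6, AL9, Ctrl3, Ctrl4, Ctrl5 or Ctrl6 took the Ctrl comparison to an FDR of 0.0508 to 0.0812 (log2FC -0.13 without AL9), and leaving out AL1, AL6 or any LS mouse took the LS comparison to 0.0507 to 0.0979. Hspa4, an HSP110 exchange factor, had 186 to 195 CPM in the 4 LS mice against 121, 152 and 193 CPM in AL (log2FC -0.26 ± 0.08, FDR 0.0275), which did not pass without LS1 (0.0546), LS2 (0.063) or LS3 (0.0723). Hspa14, which works at the ribosome, had 16.4 to 17.99 CPM in LS and 11.02 to 15.6 CPM in AL mice, with no overlap (log2FC -0.33 ± 0.08, FDR 0.0078).

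**Figure D3:**
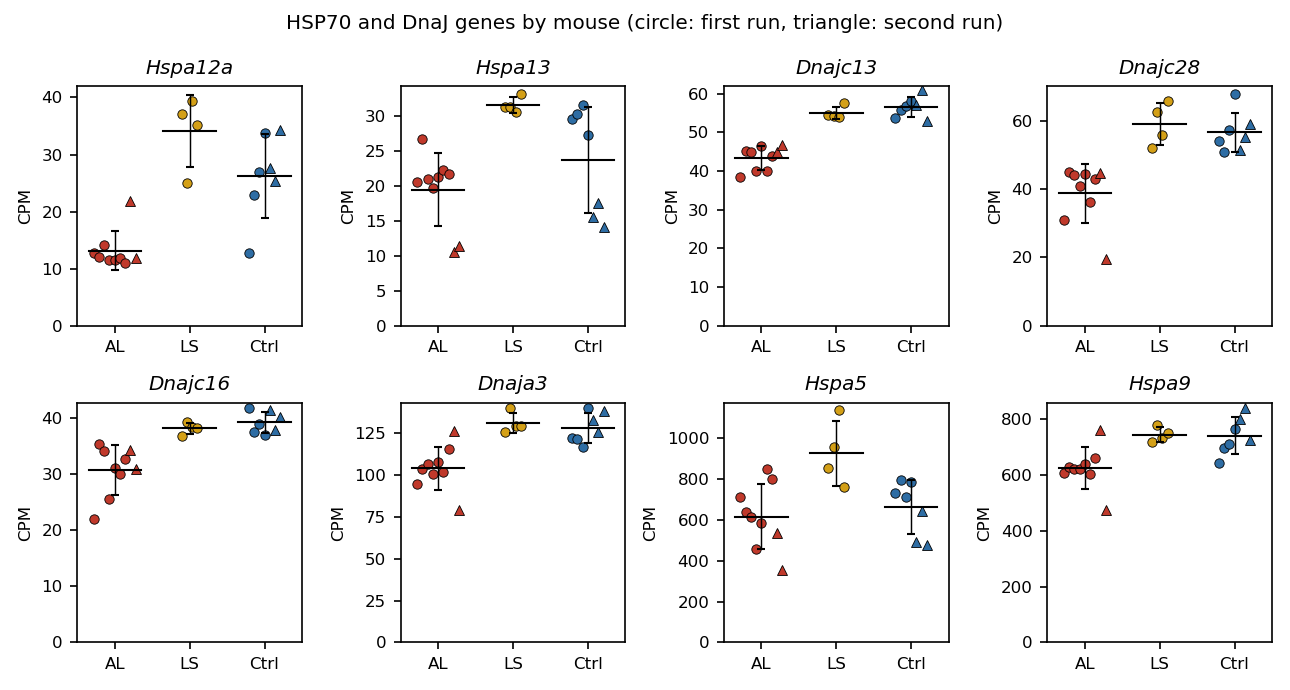
CPM of 8 HSP70 and DnaJ genes in each mouse by group (AL, LS, Ctrl); circles are first-run and triangles second-run mice, the long line is the mean and the error bar the SD. Dnajc13, Dnajc16 and Dnajc28 are lower in all 9 AL mice than in any other mouse, and the Hspa13 levels of the second run lie below those of the first.

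The heat-inducible HSP70 genes varied widely within the groups. Hspa1a ranged 57.3-fold and Hspa1b 55.9-fold over the 20 mice, and LS4 was highest and AL2 lowest in both. AL mice had 1.33, 8.06 and 20.03 CPM of Hspa1a, LS mice 35.6, 3.22, 3.34 and 76.5 CPM, and Ctrl mice 1.69, 3.96 and 23.5 CPM. The log2FC of Hspa1a was 0.08 ± 0.69 against Ctrl (FDR 0.947) and -1.72 ± 0.80 against LS (FDR 0.126, or 0.0365 with Xist as a covariate), and that of Hspa1b was -0.60 ± 0.77 (FDR 0.602) and -1.85 ± 0.90 (FDR 0.142). The pair are near copies, since 63.8% of the 31-base words of the Hspa1a transcripts occur in Hspa1b and 67.6% of those of Hspa1b in Hspa1a, so how reads were shared between them is uncertain. Summed, they had a log2FC of -0.22 against Ctrl (FDR 0.857) and -1.76 against LS (FDR 0.138). Hspa4l, an HSP110 family gene, is split over its 2 rows, with a log2FC against Ctrl of -0.42 (FDR 0.0535) for ENSMUSG00000025757 and -0.04 (FDR 0.906) for ENSMUSG00000115951. Added up, a step chosen after seeing the data, they passed against Ctrl (-0.26, FDR 0.0397) and not against LS (-0.27, FDR 0.0674).

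Upstream the copies are alike as well, and are shown for that reason, 5′ to 3′ on the minus strand of GRCm38.p6 from RefSeq, with GAANNTTC matches in capitals. They lie at chr17:34972157-34972406 (Hspa1a) and chr17:34959239-34959488 (Hspa1b).
Hspa1a: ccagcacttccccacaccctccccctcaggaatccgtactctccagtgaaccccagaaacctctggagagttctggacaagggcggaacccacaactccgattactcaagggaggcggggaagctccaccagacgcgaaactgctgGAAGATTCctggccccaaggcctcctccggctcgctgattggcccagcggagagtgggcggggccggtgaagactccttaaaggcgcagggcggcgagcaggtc
Hspa1b: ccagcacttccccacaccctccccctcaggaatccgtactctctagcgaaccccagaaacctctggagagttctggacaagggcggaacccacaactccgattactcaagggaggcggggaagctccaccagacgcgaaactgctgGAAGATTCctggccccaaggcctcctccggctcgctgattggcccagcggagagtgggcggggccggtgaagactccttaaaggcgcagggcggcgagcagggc
Of the 250 bases, 247 are identical, including the match 104 bases before each start site.

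Dnajb1, the heat-inducible J-domain partner of HSP70, was also highest in LS4 and LS1. It was at 11.6, 18.5 and 28.7 CPM in AL, 37.8, 24.8, 23.4 and 73.2 CPM in LS, and 15.8, 22.5 and 30.3 CPM in Ctrl mice. Dnajb1 fell to 0.481 of its LS level (log2FC -1.06 ± 0.28, edgeR FDR 0.011) and did not pass against Ctrl (-0.27 ± 0.24, FDR 0.418). With the replicate number as a block it passed against Ctrl (-0.84, FDR 0.0384), although replicate numbers did not pair mice. Without LS4 the log2FC against LS was -0.59 (FDR 0.109). In LS4 the immediate early gene Fos was at 87.6 CPM, against 1.05 to 29.1 CPM in the other 19 mice, and the part of this in the result was not tested.

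Between runs, the log2FC of AL against Ctrl differed in sign for Hspa1a and Hspa1b, a difference that did not pass the test given below. In the first run the log2FC was -0.51 for Hspa1a and -1.38 for Hspa1b, and in the second 1.91 and 1.93. The second-run AL mice had 8.06 and 10.2 CPM of Hspa1a, against 3.25, 2.69 and 1.69 CPM in the Ctrl mice of that run. No member passed the test of the difference between runs, against 0.701% of 13835 genes tested. Hspa1b had a difference of 3.26 ± 1.30 on the log2 scale (FDR 0.245) and Hspa1a of 2.37 ± 1.22 (FDR 0.37), and 9 members had an unadjusted p under 0.05. DESeq2 passed 2 members, both with a lower log2FC in the second run than in the first. With Xist as a covariate edgeR passed Hspa1a and Hspa1b, both with a difference in the opposite direction, higher in the second run. The shares of all genes beside these counts, and beside the 9 with an unadjusted p under 0.05, are not given. The counts therefore do not set the members apart from other genes. Leaving out AL8 or AL9 leaves 1 AL mouse in the second run, which is then assumed to vary like the other mice. The number passing in those fits is not given. All 14 members that passed against Ctrl had the same sign in both runs, which the fit over both runs that chose them favours. Over all members with a value in both it was 49 of 68.

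**Figure D4:**
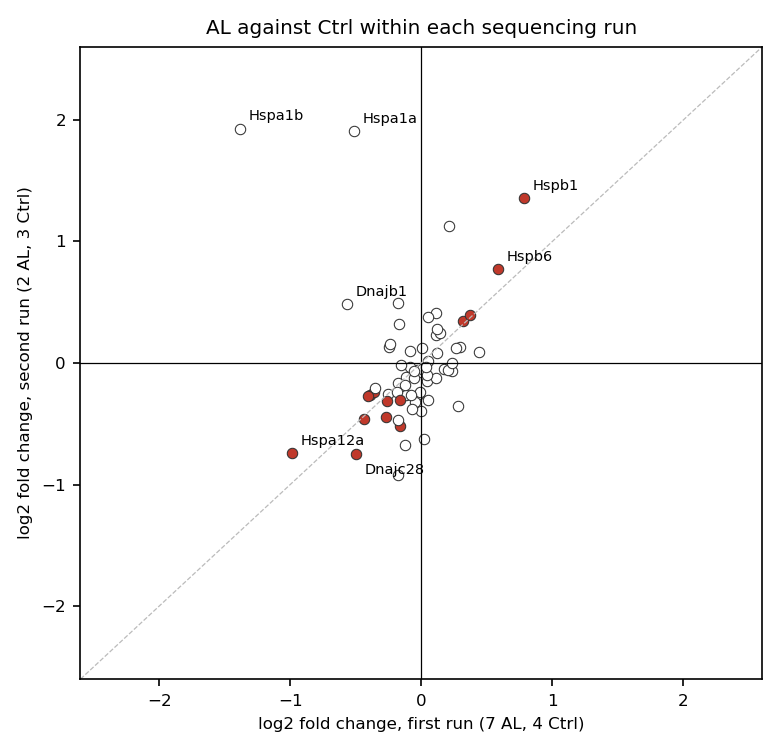
Log2 fold change of AL against Ctrl in the first run (x axis) and in the second run (y axis) for 68 members; filled points passed an FDR of 0.05 with both runs in the model, and the dashed line marks equal values. Hspa1a and Hspa1b lie far above the line, at 1.91 and 1.93 in the second run.

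Within the first run the inducible genes had lower medians in the 8 mice with high Xist, which are samples set apart by a measured value and not a group of the study. Hspa1a was at 1.33 to 10.5 CPM (median 3.28) in these 8 mice and at 4.54 to 76.5 CPM (median 20.03) in the other 7. Hspb1 had 59.1 to 74.5 CPM against 77.1 to 209 CPM, with no overlap. A fit of the slope on log2 CPM of Xist beside group and run was added after seeing this pattern. It gave 2 members with an FDR under 0.05, against 0.18% of all genes: Hsp90aa1, the inducible cytosolic HSP90 (-0.09 ± 0.02 per log2 unit of Xist, edgeR FDR 0.0352), and its J-domain co-worker Dnaja1 (-0.08 ± 0.02, FDR 0.0383). The slopes of Hspa1a (-0.29 ± 0.06, FDR 0.0829) and Hspa1b (-0.31 ± 0.07, FDR 0.0977) did not pass. In the 12 mice with 0 to 6.35 CPM of Xist, log2 values spanned -4.32 to 2.68 and were set by the prior count where the count was 0. The slopes thus rest in part on values near the floor, and do not measure a gradient there. All 13 genes of the heat-inducible list had a negative slope, as did 53 of the 69 members. The share of all tested genes with a negative slope was not counted, so these counts do not set the family apart. Since the labels give no sex for a mouse, sex and other differences between these mice cannot be told apart.

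**Figure D5:**
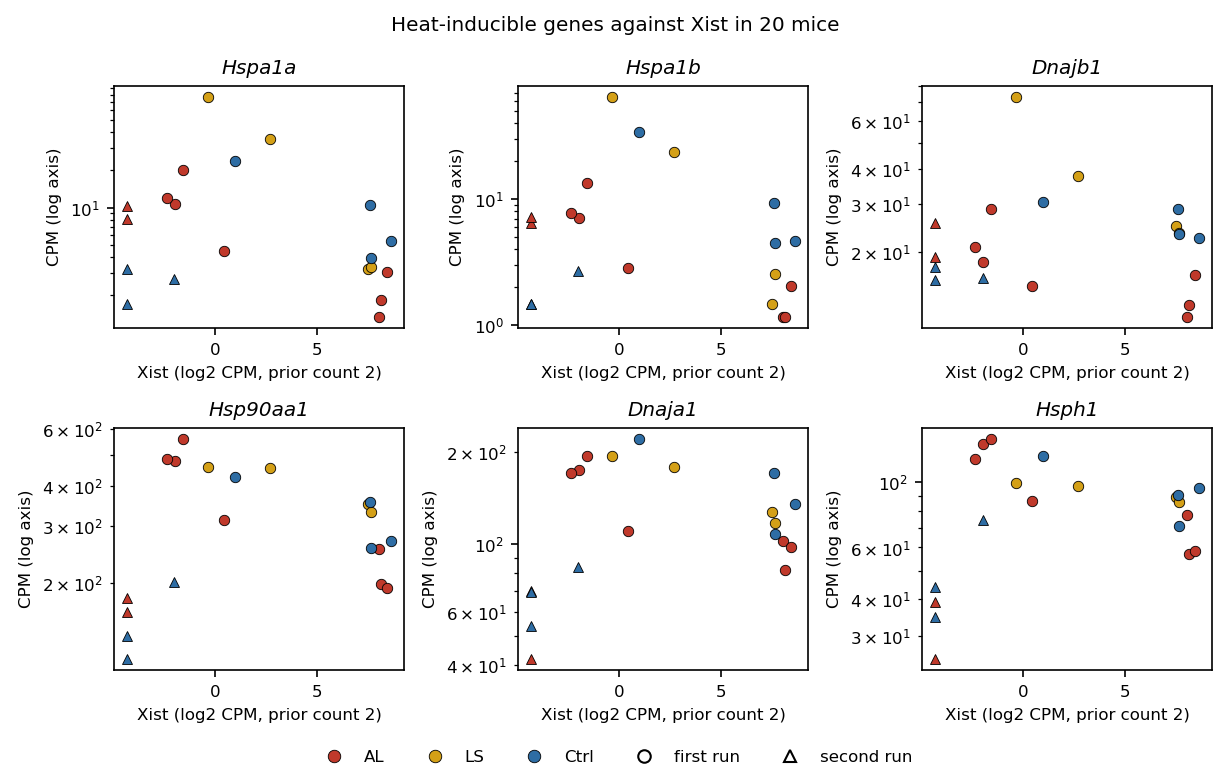
CPM on a log axis of 6 heat-inducible genes against log2 CPM of Xist in the 20 mice; colours mark the group, circles the first and triangles the second run. In the first run, the 8 mice at the right have Hsp90aa1 levels of 193 to 357 CPM and the other 7 mice levels of 313 to 559.9 CPM.

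For the HSP90 genes no comparison of the groups passed. Hsp90aa1 averaged 314 ± 153 CPM in AL mice (SD), 399 ± 67.2 CPM in LS mice and 252 ± 113 CPM in Ctrl mice, with a log2FC of 0.13 ± 0.22 against Ctrl (FDR 0.687) and -0.16 ± 0.25 against LS (FDR 0.677). Hsp90ab1 varied least of the 3, with 1417 ± 185, 1514 ± 71.0 and 1480 ± 140 CPM, and a log2FC of -0.07 ± 0.08 against Ctrl (FDR 0.538). Hspa8 averaged 2079 ± 552, 2236 ± 323 and 1747 ± 381 CPM in AL, LS and Ctrl mice, with a log2FC of 0.16 ± 0.14 against Ctrl (FDR 0.406) and -0.01 ± 0.16 against LS (FDR 0.971). Hsph1, an HSP110 exchange factor, averaged 82.1 ± 41.7, 92.9 ± 6.78 and 76.1 ± 30.3 CPM, with -0.18 ± 0.22 (FDR 0.575) and -0.02 ± 0.25 (FDR 0.966). Dnaja1 averaged 116 ± 52.3, 154 ± 37.9 and 120.0 ± 59.5 CPM, with a log2FC of -0.27 against Ctrl (FDR 0.352; -0.51, FDR 0.0148 with Xist as a covariate) and -0.22 against LS (FDR 0.53). The heat-inducible list of 13 genes was split against Ctrl, with 7 higher and 6 lower, of which Hspb1 alone passed.

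Most chaperones of the ER had lower values in AL. Against Ctrl, 7 of 8 were lower and 3 passed (Hspa13, Dnajc3 and Dnajb9), where 15.4% of all genes passed lower. Against LS 6 of 8 were lower and 2 passed (Hspa13 and Hspa5), where 13.6% of all genes did. Hspa5, which encodes BiP, the main HSP70 of the ER, was at 352, 613 and 848 CPM in AL, 853, 954, 1135 and 762 CPM in LS, and 478, 711 and 795 CPM in Ctrl mice. It fell by 0.49 ± 0.15 on the log2 scale against LS (edgeR FDR 0.0205), and the log2FC of -0.22 ± 0.12 against Ctrl did not pass (FDR 0.21). Without LS2 or LS3 the comparison with LS had an FDR of 0.0528 or 0.0997. Hspa5, Hsp90b1 and Dnajc3 are the 3 members whose upstream bases hold an exact ER stress response element (CCAAT and CCACG with 9 bases between, on either strand), which 3.9% of the members' promoters and 0.113% of all promoters hold. That of Hspa5 lies at chr2:34772025-34772043 (GRCm38.p6, plus strand, 65 bases before the start site) and is shown in full.
Hspa5: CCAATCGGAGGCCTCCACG
Hsp90b1, the HSP90 of the ER, averaged 478 ± 107 CPM in AL, 654 ± 104 in LS and 517 ± 103 in Ctrl mice (SD), with a log2FC of -0.40 ± 0.16 against LS (FDR 0.0833) and -0.19 ± 0.14 against Ctrl (FDR 0.347). In the first run alone Hsp90b1 passed against LS (-0.35, FDR 0.0469). Dnajc3, which also inhibits the kinase PERK, fell by 0.38 ± 0.11 against Ctrl (FDR 0.0141), and did not pass without the run in the model (-0.28, FDR 0.257). Dnajb9, a BiP co-chaperone, fell by 0.28 ± 0.09 (FDR 0.0233), with first-run values of 40.4 to 49.4 CPM in AL and 42.6 to 53.9 CPM in Ctrl mice, and second-run values of 13.3 and 19.4 CPM in AL against 21.7 to 26.3 CPM in Ctrl mice. Its LS values were 45.1 to 52.3 CPM (log2FC -0.22 against LS, FDR 0.111; -0.34, FDR 0.0402 with the hepatocyte list as a covariate). The fall against Ctrl did not pass without AL9 (-0.18, FDR 0.0559) or Ctrl4 (-0.26, FDR 0.0573), in the first run alone (-0.16, FDR 0.102) or without the run in the model (-0.03, FDR 0.94).

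Mitochondrial chaperones showed the same count, with 7 of 8 lower in AL against Ctrl and 3 past the threshold (Hspa9, Dnaja3 and Dnajc19), where 15.4% of all genes passed lower. The ER and mitochondrial lists overlap with the families, so their counts are not separate results: Hspa13 and Hspa9, for example, are also HSP70 rows. Against LS 7 of 8 were lower, with 2 past it (Hspa9 and Dnaja3), where 13.6% of all genes did. Dnaja3 (Tid1), the J-domain partner of Hspa9, was at 79.3, 104 and 126 CPM in AL, 126, 140, 129 and 129 CPM in LS, and 117, 125 and 140 CPM in Ctrl mice. Only AL8, at 126 CPM, reached the range of the others. It fell by 0.29 ± 0.08 against Ctrl (edgeR FDR 0.00855) and by 0.34 ± 0.09 against LS (FDR 0.0101). Dnajc19, part of the import motor of the inner membrane, fell by 0.34 ± 0.11 against Ctrl (FDR 0.0286) and did not pass without AL9 (-0.26, FDR 0.0794) or Ctrl3 (-0.31, FDR 0.0638), nor in the first run alone (-0.27, FDR 0.109) or without the run in the model (-0.21, FDR 0.368). Hspd1 averaged 421 ± 97.3, 557 ± 24.6 and 473 ± 65.6 CPM in AL, LS and Ctrl mice, and Hspe1 73.8 ± 27.9, 81.6 ± 5.999 and 55.3 ± 18.7 CPM. Neither chaperonin gene passed against Ctrl, Hspd1 with a log2FC of -0.29 ± 0.11 (FDR 0.0547) and Hspe1 with 0.21 ± 0.13 (FDR 0.261), though Hspd1 passed without AL2 (-0.31, FDR 0.0485), AL7 (-0.32, FDR 0.035) or AL8 (-0.36, FDR 0.0217) and with DESeq2 (-0.28, FDR 0.0351). Hspd1 passed against Ctrl also with Xist as a covariate (-0.32, FDR 0.0478) and with at least 10 counts in every mouse (-0.28, FDR 0.0476). Against LS, Hspd1 (-0.32, FDR 0.0704) passed without AL7 (-0.36, FDR 0.0432), AL8 (-0.34, FDR 0.0397) or AL9 (-0.26, FDR 0.0153). It passed there as well in the first run alone (-0.27, FDR 0.0114) and with the replicate block (-0.31, FDR 0.0339). The ratio of Hspd1 to Hspe1 in CPM ranged from 3.85 to 14.4 over the mice.

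Among the DnaJ genes proper, 19 of 25 tested Dnajc genes were lower in AL against Ctrl, and 1 passed higher (Dnajc4) and 5 lower, beside 10.7% of all genes higher and 15.4% lower. Against LS 19 of 25 were lower and 5 passed, all lower, beside 13.6% of all genes. Dnajc13 (RME-8), an endosomal J-domain protein, was at 38.6, 44.8 and 46.6 CPM in AL, 54.6, 54.1, 53.8 and 57.5 CPM in LS, and 52.95, 56.8 and 60.9 CPM in Ctrl mice. It fell by 0.37 ± 0.05 against Ctrl (edgeR FDR 0.000138) and by 0.35 ± 0.06 against LS (FDR 0.000657). All AL mice lay below all others, and the log2FC against Ctrl was -0.39 in the first and -0.26 in the second run.

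Dnajc28 was at 19.6, 43.1 and 45.1 CPM in AL, 52.1, 62.4, 55.8 and 65.8 CPM in LS, and 50.9, 55.3 and 67.7 CPM in Ctrl mice, again without overlap. Its log2FC was -0.59 ± 0.13 against Ctrl (edgeR FDR 0.00314) and -0.57 ± 0.15 against LS (FDR 0.0101), just inside and just outside the fold threshold. Against Ctrl it lay below that threshold, still with an FDR under 0.05, without AL1, AL6, AL9, Ctrl4, Ctrl6 or Ctrl7 (log2FC -0.58 to -0.45). Dnajc16 had 22.0, 30.98 and 35.4 CPM in AL, 36.8, 39.2, 38.4 and 38.1 CPM in LS, and 37.0, 39.0 and 41.8 CPM in Ctrl mice. It fell by 0.34 ± 0.08 against Ctrl (FDR 0.00496) and by 0.33 ± 0.09 against LS (FDR 0.0167), the latter not passing without LS2 (FDR 0.051). Dnajc4 was the 1 DnaJ gene that rose against Ctrl, from 10.8 ± 1.66 CPM in Ctrl to 13.2 ± 0.909 CPM in AL mice (SD; log2FC 0.31 ± 0.08, FDR 0.00946).

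Dnajc8, which associates with the spliceosome, and Dnajc24, which acts in diphthamide synthesis, fell against LS alone, by 0.23 ± 0.08 (edgeR FDR 0.0404) and 0.45 ± 0.16 (FDR 0.0446). Dnajc8 did not pass without any 1 of AL1, AL6, AL7 and the LS mice (FDR up to 0.102, without LS2). Dnajc24 did not pass without any 1 of AL1, AL2, AL3, AL7, LS1, LS3, LS4, Ctrl1 and Ctrl2 (up to 0.113, without LS1). Among the Dnaja and Dnajb genes, 9 of 13 tested were lower in AL against Ctrl, and Dnaja3 and Dnajb9 passed.

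With the mean log2 CPM of the hepatocyte list as a covariate, 15 members passed against Ctrl and 11 against LS. The shares of all genes that passed in this fit are not given, so these counts do not set the members apart. Hspb6 had a log2FC of 0.75 against Ctrl in that fit (edgeR FDR 0.0034), Hspa12a of -0.82 (FDR 0.0198), while Dnajc3 (-0.29, FDR 0.168), Dnajc4 (0.29, FDR 0.0848), Dnajc16 (-0.32, FDR 0.0568) and Dnajc19 (-0.33, FDR 0.138) did not pass. Against LS, Dnajb1 (-0.81, FDR 0.0736), Hspa5 (-0.40, FDR 0.105), Hspa4 (-0.24, FDR 0.0971), Bag3 (0.30, FDR 0.112), Dnajc16 (-0.31, FDR 0.0643) and Dnajc24 (-0.29, FDR 0.276) did not pass in it.

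Of 47 co-chaperones and other folding factors in the same pathway, 46 were tested, and 5 rose and 5 fell against Ctrl, beside 10.7% and 15.4% of all genes, with a median log2FC of -0.02. The 6 with the lowest FDR were Smyd1, a myosin chaperone partner (-0.43 ± 0.09, edgeR FDR 0.00202), the HSP70 exchange factor Bag1 (0.33 ± 0.07, FDR 0.00234), the ubiquitin ligase Stub1 (0.31 ± 0.07, FDR 0.00306), the TRiC chaperonin subunit Cct6a (-0.33 ± 0.08, FDR 0.00481), the prefoldin subunit Pfdn1 (0.30 ± 0.07, FDR 0.00536) and Trap1, the mitochondrial HSP90 (-0.25 ± 0.06, FDR 0.00615). On ComBat-seq adjusted counts none of these 6 passed (FDR 0.167 to 0.416). Against LS, 1 of the 46 rose and 6 fell, beside 9.78% and 13.6% of all genes.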

How the data were processed

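Total RNA of the heart apex was made into stranded mRNA libraries, and paired-end reads were sequenced in 2 runs. Per the labels and methods, the authors aligned reads to GRCm38 with STAR, and deposited estimated counts per gene from Salmon, unadjusted for the run; 14.2% of the deposited values were not whole and were rounded. A floor of 3 counts equals 0.0479 to 0.381 CPM and covers counting error only. Genes were filtered (filterByExpr, minimum count 10) and tested with edgeR 4.0.16 in R 4.3.3 (glmQLFit and glmQLFTest on TMM-scaled counts, group and run in the model, all 20 mice). FDR is over all tested genes, and a call needed an FDR under 0.05 and a log2FC beyond 0.58 in size, or beyond 1 against merged LS and Ctrl. SE came from the F statistic. DESeq2 1.42.0, ComBat-seq of sva 3.50.0, RLE factors, other filters, the run omitted or split, the replicate number as a block, covariates and leaving out each mouse were alternatives. CPM was TMM-scaled (prior count 2 for log2 of Xist). Gene coordinates came from GENCODE M21, and figures were drawn with matplotlib 3.10.9. Named members were those called in any comparison, together with 20 anchors (among them Cryab, Hspa1a, Hspa5, Hspd1 and Dnaja1) and, of the co-chaperones, the 6 with the lowest FDR against Ctrl; others were chosen after their values were seen. The members and lists were chosen with earlier results of these data known. The fits were tested on simulated counts with planted changes. These held no run effect common to the groups, so the adjustment for the run was not covered. The labels list each mouse as a separate sample. The same replicate numbers did not pair mice: over 15 pairs the correlation of deviations was -0.154 to 0.231, above 0.1 in 3.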

Additional observations from a re-analysis of the deposited data

Results flagged for a closer look

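Among the 66 sets of 4 to 9 mice of one group examined, 6 had a highest or lowest mouse that stood far from the rest, where chance alone gives about 1 in 20. That rate is a rough guide, since values were not adjusted for the run and the same mice enter many sets. AL8 and AL9, named below, are the AL mice of the second run. In Dnajc28, AL9 was at 19.6 CPM and the next AL mouse, AL1, at 30.8 CPM. For Hspd1, AL9 was again the lowest AL mouse, at 196 CPM, with AL8 next at 378 CPM. Its summed CPM was also the lowest of all mice for the HSP70 (2301), HSP90 (1542), Dnajc (672), ER (801) and mitochondrial (887) genes. This was not so for the Dnajb genes (432) or the small heat shock proteins (5027). The part of AL9 in the lower values of the AL group was not tested beyond leaving it out. Hspa12a had AL8 at 21.9 CPM, above AL3 at 14.2 CPM, and Ctrl1 at 12.7 CPM, below Ctrl2 at 23.0 CPM. In Hspb6, Ctrl3 was at 217 CPM and Ctrl5, the next, at 298 CPM. For Hspb7, LS1 was at 1747 CPM and LS3 at 1919 CPM.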

How the results depend on the processing

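No alternative reversed the sign of the 52 pairs of a member and a comparison that passed the FDR (30 to 32 alternatives each), and 9 pairs kept their side of the threshold in all. Apart from Hspa12a against LS, these 9 were from AL against merged LS and Ctrl. None could be from AL against Ctrl, the 1 comparison also fitted in the second run alone, where no member passed. The alternatives thus differed between comparisons, and this count does not rank them. Against Ctrl, Hspa12a kept its side in 31 of 32 alternatives. Members at an FDR under 0.05 against Ctrl (14) numbered 3 with ComBat-seq and 0 in the second run alone, against LS (15) 2 with ComBat-seq, and against merged LS and Ctrl (23) 13 without the run term. Members called against Ctrl (4) numbered 2 in the first run alone, 0 in the second and 2 with the replicate block; against LS (3), 6 without the run term and 5 with the replicate block; against merged groups (1), 2 without a filter on low counts, 3 with the replicate block, 3 with Xist and 2 with the hepatocyte list as a covariate. The difference between runs (0) gave 2 with DESeq2, both lower in the second run, and 2 with Xist, both higher. Leaving out each mouse gave 12 to 19 and 3 to 4 against Ctrl, 9 to 18 (9 without LS2 or LS3) and 3 to 5 (5 without AL2) against LS, 20 to 29 and 1 to 1 against merged groups, and 0 to 0 for LS against Ctrl. The difference between runs moved without AL8 or AL9, which leaves 1 AL mouse in the second run, and gave 0 without any other AL or Ctrl mouse. Summing gave Hspa1a with Hspa1b a log2FC of -0.22 against Ctrl, and the pair of Hspa4l rows, an alternative added after seeing the data, 0.00924 for LS against Ctrl. The cause of these shifts was not tested, and the share of all genes in each setting is not given beside them. Replicate numbers did not pair mice. Other counts changed by at most 1.5 times, reached against Ctrl with DESeq2 (21 at an FDR under 0.05) and with the hepatocyte list (6 called). The second run, with 5 mice at low depth, limits its own values.

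Members described without passing did change sign. Against Ctrl, Hspa1a had a log2FC of -0.51 in the first run alone, -1.67 with the replicate block and -0.90 with Xist, and Hspa1b 0.21 with ComBat-seq, 1.93 in the second run alone and 0.78 with the hepatocyte list. Dnajb1 had 0.48 in the second run and 0.0731 with the hepatocyte list, Hsp90aa1 -0.28 with the replicate block and -0.17 with Xist, Hsph1 0.11 without the run term and 0.0223 in the first run, and with the replicate block Hspa8 had -0.0233 and Hsf1 -0.000644. Against LS, Hspa8 had 0.00892 with at least 10 counts in every mouse and 0.10 with the hepatocyte list, Hsp90aa1 0.00562 with that list, Hsph1 0.000545 with the same filter, 0.0595 in the first run and 0.0511 with only the groups compared, and Hspe1 -0.00465 with ComBat-seq, -0.14 without the run term, -0.0223 with the replicate block and -0.0591 with Xist. Leaving out each mouse gave -0.22 to 0.68 for Hspa1a and -0.90 to 0.33 for Hspa1b against Ctrl, and -0.0751 to 0.0594 for Hspa8, -0.14 to 0.0542 for Hsph1 and -0.0838 to 0.069 for Hspe1 against LS.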
